A study of Cucumis sativus with 18 samples.

Results

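The genes described here are the 200 cucumber genes whose RNA level was highest, by the widest margin, in freshly harvested unpollinated ovaries before any culture. A gene was taken when its mean RPKM, a read number scaled to the length of the gene and the depth of the library, over the 3 libraries of fresh ovaries was at least 5, and when that mean plus 1 was at least 2 times the highest mean plus 1 of any cultured time. The rule was met by 412 of the 23248 genes in the files, and the 200 with the highest ratio were kept, which is 0.860% of all genes and 1.87% of the 10680 genes at 5 RPKM or more in fresh ovaries. The rule used the values of all 18 libraries, so a high level in fresh ovaries beside a low one in culture is how the genes were picked and is described here without a test.

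The study followed Cucumis sativus through ovary culture, a way to obtain embryos from unpollinated ovaries on a culture medium. Each time had 3 libraries, which the design text calls biological replicates; the labels name no cultivar, donor plant, medium or batch. The groups were fresh unpollinated ovaries, ovules cultured for 2 days, and embryos cultured for 10, 20, 30 and 60 days, while the tissue label reads ovary for all 18 libraries. What was sampled thus changes together with the time in culture, and the 2 cannot be told apart. In such bulk samples, fewer cells of a type and less RNA per cell cannot be told apart either.

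As background, the cucumber ovary is an inferior ovary in which a fleshy wall and placental tissue enclose many ovules, each with integuments around an embryo sac. Pollination and fertilisation normally turn the ovules into seeds and the ovary into the fruit. In ovary culture the tissue is detached from the plant, its supply of sugar and hormones comes from the medium, and a few cells of the ovule may enter an embryo programme without fertilisation. The fresh organ thus holds wall, placenta and ovules together, and the libraries do not say in which of them a gene was transcribed. The files give genes by ID alone, and 0 of the 23248 IDs matched the RefSeq table at hand, so no gene name, function or sequence is given, and markers that would check the tissue label could not be read.

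The libraries held 21784392 to 72472085 reads assigned to genes, a number recovered from the steps in the RPKM values. Replicate 3 was the deepest library at every time. Replicate 1 of day 10 and replicate 1 of day 20 listed the fewest genes above 0, 17653 and 18591, against 19121 to 20517 in the other libraries. The genes of the set rested on a median of 6649 reads in the 3 fresh libraries together, and on at least 131. The labels mention no molecular identifiers, so reads are not independent molecules.

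**Figure D1:**
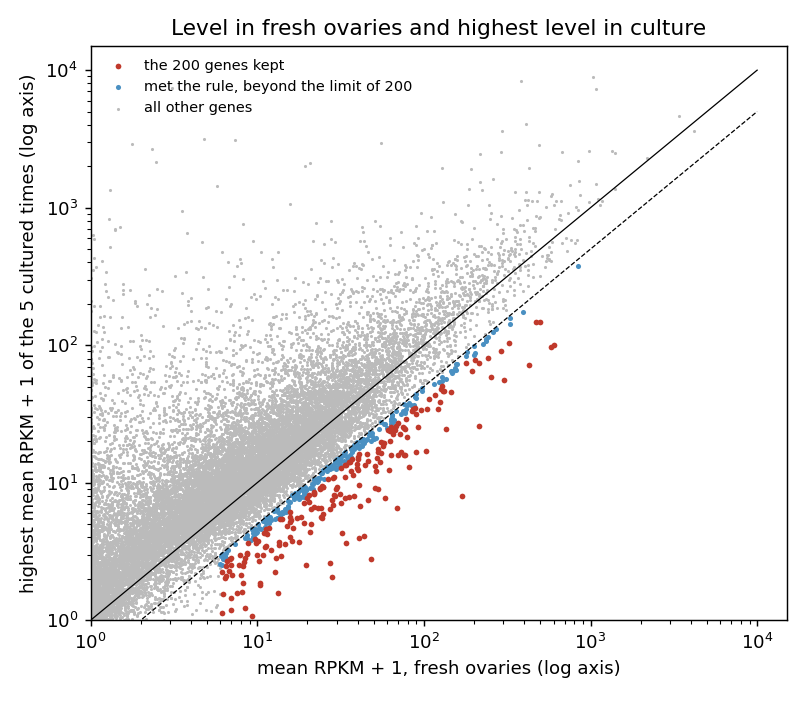
Each point is a gene, with its mean RPKM + 1 in fresh ovaries on the horizontal log axis and its highest mean RPKM + 1 of the 5 cultured times on the vertical log axis; the solid line marks equal levels and the dashed line a ratio of 2. The 200 genes kept (red) lie farthest below the dashed line, and the other genes that met the rule (blue) lie just under it.

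Most of the set was at a moderate level in fresh ovaries. The mean was 10 to 100 RPKM for 136 genes, at least 100 RPKM for 28 and under 10 RPKM for 36, with a median of 30.7 and a highest value of 599. The ratio of the rule had a median of 3.21, with 7 genes at 10 or more, 62 at 4 or more and 76 under 3. Even at the cultured time where a gene stood highest, its mean was a median of 27.2% of that in fresh ovaries, with a range of 0.808% to 40.6%. The lowest fresh library lay above all 15 cultured libraries for 196 of the 200 genes, where 10.3% of all genes did so, and the rule used that contrast.

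As a group these genes made up a small and then much smaller share of the RNA. They took 2.46% ± 0.118 of the reads assigned to genes in fresh ovaries (SD, n = 3 at each time), 0.501% ± 0.00480 at day 2, 0.429% ± 0.00998 at day 10, 0.462% ± 0.00749 at day 20, 0.469% ± 0.00845 at day 30 and 0.515% ± 0.00748 at day 60. The median of their mean RPKM was 30.7 in fresh ovaries, 5.54 at day 2, 3.66 at day 10, 4.47 at day 20, 3.93 at day 30 and 3.91 at day 60. The set was already low at the first cultured time and lowest, by share and by median, at day 10. Over all genes at 5 RPKM or more in fresh ovaries the median was 14.9 in fresh ovaries, 12.9 at day 2 and 12.5 at day 10. Gene by gene, the mean at day 2 was a median of 19.1% of the fresh mean, with quartiles of 9.70% and 27.0%, and 54 genes stood under 10% of it. At day 10 the median was 14.1%, with quartiles of 4.90% and 20.9%, and 82 genes stood under 10%. At days 20, 30 and 60 the medians were 15.8%, 15.5% and 17.0%, with 65, 64 and 64 genes under 10%.

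Csa2G263890 had the highest ratio of the rule, 21.1. Its RPKM was 191, 171 and 141 in fresh ovaries, 8.38, 6.07 and 6.49 at day 2, 0, 1.07 and 1.03 at day 10, 5.47, 1.64 and 2.76 at day 20, 0.487, 1.48 and 1.80 at day 30, and 1.86, 0.364 and 0.789 at day 60. The 3 fresh libraries stood far above the rest, day 2 was the next highest, and the libraries of day 10 lay below those of day 20, while those of days 30 and 60 overlapped with day 10. Csa3G728000 followed, at 48.1, 48.8 and 45.2 RPKM in fresh ovaries, 1.12, 1.24 and 3.07 at day 2, 2.27, 0.609 and 0.778 at day 10, and 0 to 0.648 in the 9 libraries of days 20 to 60. Csa4G641500 lay between 0 and 1.24 RPKM in every cultured library, against 21.0, 29.7 and 30.9 in fresh ovaries. For genes this low in culture the order of the times rests on few reads: Csa3G728000 had 36, 19 and 18 reads in the 3 libraries together at days 20, 30 and 60.

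The next genes by ratio differed in how they behaved once in culture. Csa5G175700 was at 45.7, 41.4 and 40.2 RPKM in fresh ovaries and had 2 low times, day 10 at 0.926, 0.907 and 0.956 and day 30 at 0.907, 0.740 and 1.15, between higher ones at day 2 (1.80, 1.89 and 2.81), day 20 (3.26, 2.79 and 3.27) and day 60 (1.84, 2.38 and 2.93). Csa1G467060, at 18.8, 29.2 and 31.6 RPKM in fresh ovaries, stood at 1.44 to 1.73 at day 2, 0.343 to 0.914 at days 10 to 30 and 1.19 to 1.33 at day 60. Csa7G072810 was at 54.2, 80.8 and 69.3 RPKM in fresh ovaries, 1.47 to 1.75 at day 2, 0, 0.197 and 0.216 at day 10, 1.99, 1.29 and 1.04 at day 20, 5.82, 5.27 and 5.61 at day 30 and 0.991, 0.818 and 1.21 at day 60. Its day 30 libraries lay above all other cultured ones without overlap.

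The rest of the 10 highest ratios came from genes that were close to absent in culture or varied between replicates. Csa6G083540 had 17, 1, 8, 1 and 1 reads in the 3 libraries together at days 2, 10, 20, 30 and 60, against 2032 in fresh ovaries, where it stood at 8.17, 9.64 and 7.19 RPKM. Of the 200 genes it had the lowest level in culture relative to fresh ovaries, 0.808%. Csa6G502630 was at 0 to 1.503 RPKM in culture, against 14.0, 13.0 and 9.92 in fresh ovaries. Csa1G616350, a short gene with a recovered length of 292 bases, was at 0 to 6.50 RPKM in culture, against 40.2, 42.9 and 36.3 in fresh ovaries. Csa3G748180 was at 0.279 to 3.90 RPKM in culture, against 40.5, 41.7 and 17.4 in fresh ovaries, and its replicate 3 was the lowest library at each of the 6 times.

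**Figure D2:**
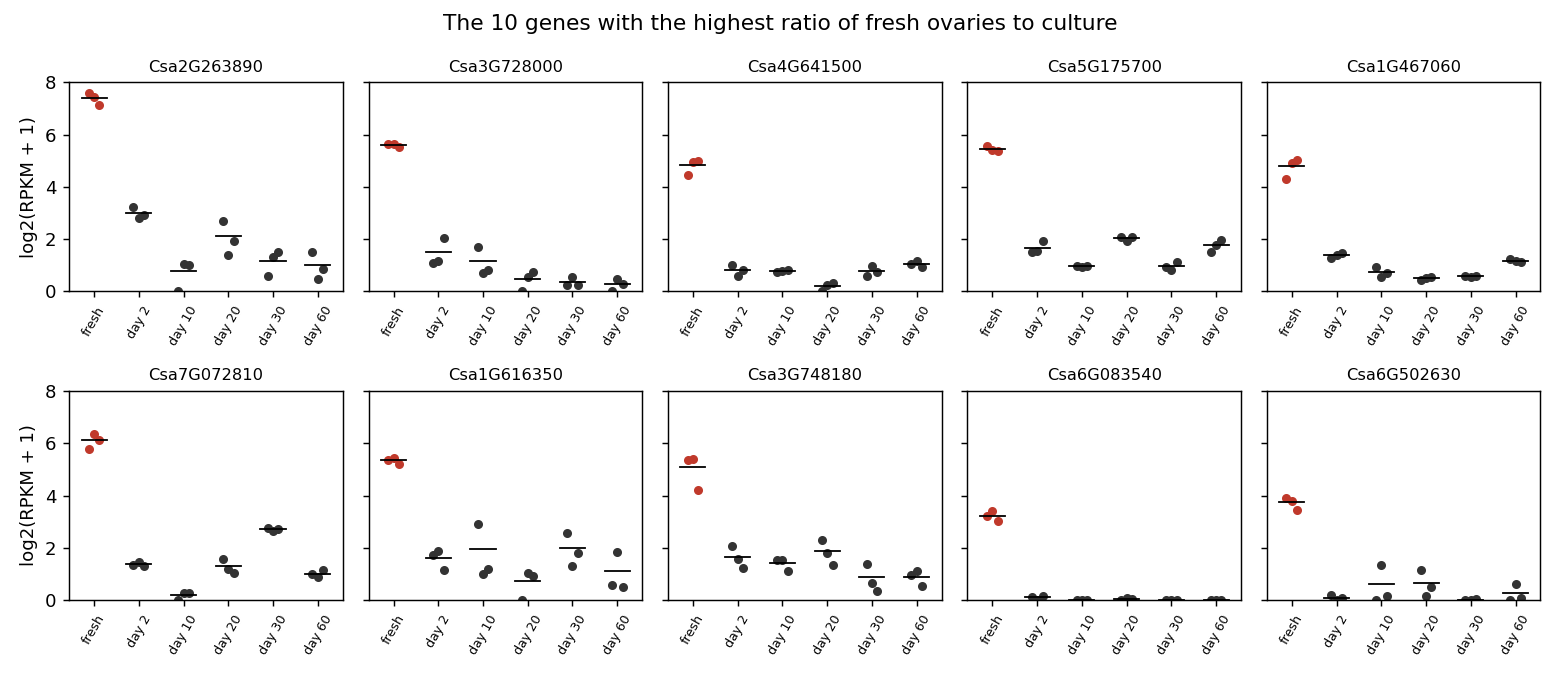
Each panel is 1 of the 10 genes with the highest ratio; the vertical axis is log2(RPKM + 1), the horizontal axis the 6 times, each point a library (red for fresh ovaries, black for culture, replicates 1 to 3 side by side) and each line log2 of the mean RPKM + 1. In all 10 panels the 3 fresh libraries lie above every cultured one, and Csa7G072810 shows a second, lower high at day 30.

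The most abundant genes of the set in fresh ovaries fell well below that level, but their means stayed at 21.7 RPKM or more in culture. Csa4G312880 reached the highest mean in fresh ovaries, with 639, 537 and 620.0 RPKM, and stood at 48.6, 47.2 and 64.0 at day 2, 30.4, 24.1 and 37.3 at day 10, 42.7, 46.1 and 58.6 at day 20, 39.6, 39.4 and 44.8 at day 30 and 100.1, 85.3 and 111 at day 60. Its day 60 libraries were above all other cultured ones and far below the fresh ones. Csa5G515060 averaged 581 ± 83.9 RPKM in fresh ovaries (SD, n = 3 at each time), 39.2 ± 6.28 at day 2, 43.0 ± 6.39 at day 10, 95.3 ± 11.4 at day 20, 96.7 ± 2.29 at day 30 and 74.5 ± 9.63 at day 60. Csa7G419590 averaged 425 ± 82.1 RPKM in fresh ovaries, 70.3 ± 5.99 at day 2, 21.7 ± 2.44 at day 10, 25.0 ± 2.21 at day 20, 46.5 ± 6.15 at day 30 and 32.3 ± 2.95 at day 60.

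The highest levels in culture belonged to 3 genes with different courses. Csa1G569430, at 479, 489 and 513 RPKM in fresh ovaries, was at 39.4, 40.04 and 45.3 at day 2, 116, 161 and 161 at day 10, 129, 144 and 151 at day 20, 56.5, 61.9 and 63.2 at day 30 and 71.6, 73.8 and 76.8 at day 60. It held the highest mean of the set at days 10 and 20. Csa5G136900, which held it at days 2 and 30, was at 403, 551 and 460.5 RPKM in fresh ovaries, 99.3, 95.6 and 89.9 at day 2, 43.2, 35.6 and 36.5 at day 10, 45.8, 38.4 and 34.8 at day 20, 150.1, 147 and 141 at day 30 and 83.9, 92.6 and 81.7 at day 60. Csa6G499090 held it at day 60, with 101, 102 and 104 RPKM there, and stood at 261, 348 and 365 in fresh ovaries, 53.4 to 67.0 at day 2 and 78.4 to 101 in the 9 libraries of days 10 to 30.

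The limit of 200 fell within a continuous range. The last genes kept were Csa1G045700, Csa6G490220 and Csa3G141870, all at a ratio of 2.44, with a highest cultured mean of 1.70, 2.63 and 3.63 RPKM, against 5.59, 7.85 and 10.3 in fresh ovaries. The next in order, Csa5G148800, Csa6G366550 and Csa6G490260, had ratios of 2.43, 2.43 and 2.42, with a highest cultured mean of 6.84, 20.3 and 5.11 RPKM, against 18.1, 50.6 and 13.8 in fresh ovaries. Applying the rule with 1 library left out at a time kept 174 to 199 of the 200.

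As a description, the rule was also applied to 2 replicate numbers at a time, and the genes so chosen were read in the remaining one. Each such choice is another list than the 200 described here, for which all 18 libraries were used. The contrast read is the one the rule uses, so the counts are no test of the 200. Shares of all genes are over 23248 genes, of which 10680 were at 5 RPKM or more in fresh ovaries. Of 200 genes chosen without replicate 1, 169 met the full rule in the replicate 1 libraries alone, where 1.71% of all genes met it. Without replicate 2 the number was 192, against 1.86% of all genes, and without replicate 3 it was 180, against 1.69%. The left-out fresh library was the highest of its 6 libraries for 200, 197 and 198 of the chosen genes. Among genes at 5 RPKM or more in fresh ovaries, 34.0%, 31.7% and 31.2% had it highest. The 3 choices shared 180, 182 and 185 genes with the 200 described here. The median ratio in the left-out libraries was 3.01, 3.22 and 3.11. Libraries of 1 replicate number may share a preparation, which the labels do not state.

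Replicate 3 differed from the other numbers for some genes of the set. It was the lowest library at all 6 times for 15 of the 200 genes (7.5%) and the highest at all 6 for 9 (4.5%). Both shares were below those of the genes at 5 RPKM or more in fresh ovaries, 10.2% and 11.985%. In 3 genes, Csa3G120450, Csa3G134650 and Csa5G137400, replicate 3 was under 0.5 times both others at every time. This property was shared by 13 of those 10680 genes and looked for after seeing their values. Csa5G137400 was at 96.3, 123 and 11.8 RPKM in fresh ovaries, 29.6, 31.2 and 2.02 at day 2, 6.32, 4.001 and 0.897 at day 10, 10.1, 5.22 and 1.92 at day 20, 35.9, 33.5 and 14.1 at day 30, and 14.1, 21.6 and 1.45 at day 60. Csa3G120450 was at 16.8, 20.4 and 2.17 RPKM at day 2, against 57.8, 86.2 and 15.9 in fresh ovaries. These 3 genes and Csa3G769640, a gene of 192 bases at 6.51, 2.41 and 6.63 RPKM in fresh ovaries, are the 4 whose fresh and cultured libraries overlapped. Within a replicate number, fresh ovaries held the highest value for 200 of the 200 genes in replicate 1. In replicates 2 and 3 they did so for 199 and 199. Among genes at 5 RPKM or more in fresh ovaries the shares were 34.0%, 31.7% and 31.2% in replicates 1, 2 and 3. The rule used these values, so the counts are a description.

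What happened to these genes between cultured times was tested on the 15 cultured libraries alone, with fresh ovaries left out of both the fit and the filter. The filter asked for 1 RPKM in at least 3 of these 15, and 186 of the 200 genes passed it; the other 14, Csa6G083540 and Csa6G502630 among them, were too low in culture to be followed. The test was limma's on log2(RPKM + 1) over 17937 genes, with p-values adjusted over all of them by the Benjamini-Hochberg method and calls made below 0.05. Because the rule sets a ceiling on the highest cultured mean of each gene, it also bounds the changes these genes could show. Over the 5 cultured times 146 of the 186 (78.5%) varied, against 84.4% of all genes tested.

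The 200 genes were highest in culture at different times. Day 2 was the highest cultured time for 69 of them, or 34.5%, day 10 for 19 (9.50%), day 20 for 37 (18.5%), day 30 for 27 (13.5%) and day 60 for 48 (24.0%). Among all genes at 5 RPKM or more in fresh ovaries these shares were 27.0%, 14.95%, 10.8%, 18.1% and 29.3%. The lowest cultured time was day 2 for 30 genes of the set, day 10 for 56, day 20 for 39, day 30 for 32 and day 60 for 43. As shares these were 15%, 28%, 19.5%, 16% and 21.5%, against 21.8%, 22.4%, 26.6%, 8.46% and 20.7% of all genes at 5 RPKM or more in fresh ovaries.

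**Figure D3:**
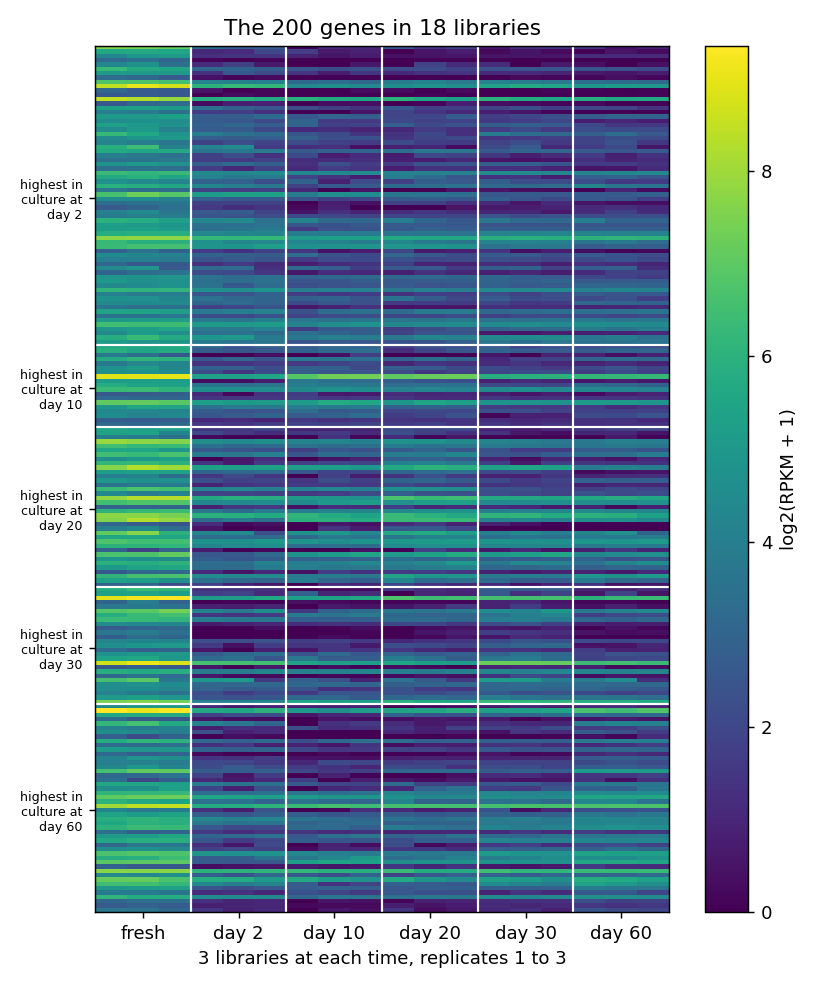
Each row is 1 of the 200 genes and each column 1 of the 18 libraries, in 3 columns per time, with log2(RPKM + 1) as colour; rows are grouped by the cultured time of the highest mean and ordered within a group by falling ratio. The fresh columns are the brightest in nearly every row, and the groups hold 69, 19, 37, 27 and 48 genes from top to bottom.

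From day 2 to day 10 more genes of the set fell than rose. Of the 186 tested, 75 (40.3%) were lower at day 10, against 31.4% of all genes tested. Another 19 (10.2%) were higher, against 21.8%. The median log2 fold change was -0.33 for the set and -0.11 for all genes tested. Csa1G123470 fell to 0, 1.52 and 1.90 RPKM at day 10, against 16.7, 11.99 and 7.37 at day 2 (log2 fold change -2.68, SE 0.34, adjusted p = 1.76e-05). Csa4G001860 fell to 2.65, 1.74 and 0.674 RPKM at day 10, against 16.5, 12.7 and 13.2 at day 2 (log2 fold change -2.56, SE 0.34, adjusted p = 2.77e-05). Neither gene's libraries overlapped between the times.

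Among the genes called, the 2 largest rises at that step were in genes with their lowest mean at day 2. Csa3G748200 rose to 12.5, 9.74 and 8.69 RPKM at day 10, against 0.242, 0.273 and 0.630 at day 2 (log2 fold change 3.03, SE 0.17, adjusted p = 5.23e-09), with 35.3, 37.3 and 37.1 in fresh ovaries. Csa1G049460 rose to 38.2, 45.5 and 39.9 RPKM at day 10, against 5.66, 5.17 and 5.08 at day 2 (log2 fold change 2.74, SE 0.09, adjusted p = 2.45e-11), with 125, 126 and 126 in fresh ovaries. Both stayed below the fresh level by the choice of the set.

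Between day 10 and day 20 the balance went the other way. Here 45 genes of the set (24.2%) were higher at day 20, against 15.6% of all genes tested. Another 22 (11.8%) were lower, against 13.9%. The median log2 fold change was 0.15 for the set and 0.00 for all genes. Consecutive steps share the libraries of a time, here day 10, so a deviation in those libraries shifts the 2 steps in opposite directions. Csa1G560820 rose to 6.38, 6.64 and 5.26 RPKM at day 20, against 0, 0.451 and 0.864 at day 10 (log2 fold change 2.34, SE 0.30, adjusted p = 4.5e-05). Csa4G499300 rose to 16.2, 16.1 and 12.1 RPKM at day 20, against 2.40, 2.95 and 2.79 at day 10 (log2 fold change 2.08, SE 0.29, adjusted p = 8.6e-05). Among the genes called, the largest falls were smaller, in Csa1G616330, at 1.41, 2.94 and 4.75 RPKM at day 20 against 6.50, 8.69 and 9.02 at day 10 (log2 fold change -1.25, SE 0.24, adjusted p = 0.00128), and in Csa3G748200, at 5.76, 4.16 and 3.74 RPKM against 12.5, 9.74 and 8.69 (log2 fold change -1.03, SE 0.17, adjusted p = 0.000399). Fitted on the 6 libraries of these 2 times alone, 28 genes of the set were higher and 10 lower. In that fit 3180 of the 16416 genes tested were called, 1747 of them higher.

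At day 30 the set was divided. Against day 20, 43 genes (23.1%) were higher, against 37.4% of all genes tested. Another 45 (24.2%) were lower, against 16.7%. The median log2 fold change was 0.03 for the set and 0.24 for all genes, and another scaling moved the split. Median-ratio scaling called 24 genes of the set higher and 56 lower, with a median of 0.02 over all genes. Upper quartile scaling called 32 higher and 52 lower, with a median of 0.12. The calls over all genes moved too. In the main fit 6701 of the 9694 genes called were higher. With median-ratio scaling 3905 of 8098 were, and with upper quartile scaling 5060 of 8634. Csa4G499300, which had risen at day 20, fell to 2.37, 0.560 and 2.43 RPKM at day 30, against 16.2, 16.1 and 12.1 at day 20 (log2 fold change -2.58, SE 0.29, adjusted p = 5.71e-06). Csa6G495830 fell to 3.997, 3.99 and 2.68 RPKM at day 30, against 25.2, 25.1 and 23.6 at day 20 (log2 fold change -2.51, SE 0.13, adjusted p = 5.52e-09), and stayed at 2.45 to 3.43 at day 60.

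Among the genes called, the largest rises at day 30 were in Csa3G860320 and Csa5G136900. Csa5G137400 had a larger log2 fold change, 2.19, that did not pass the test (SE 0.96, adjusted p = 0.0695). Its RPKM was 35.9, 33.5 and 14.1 at day 30, against 10.1, 5.22 and 1.92 at day 20, higher within each replicate number. The main fit has no term for the replicate number, so this SE also holds the gap between replicate 3 and the others. Csa3G860320 rose to 13.6, 8.93 and 8.48 RPKM at day 30, against 1.59, 3.06 and 1.42 at day 20 (log2 fold change 1.92, SE 0.30, adjusted p = 0.000125); in fresh ovaries its libraries spread from 27.9 to 75.7. Csa5G136900 rose to 150.1, 147 and 141 RPKM at day 30, against 45.8, 38.4 and 34.8 at day 20 (log2 fold change 1.86, SE 0.11, adjusted p = 9.7e-09).

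From day 30 to day 60, 42 genes of the set (22.6%) rose, against 16.4% of all genes tested. Another 27 (14.5%) fell, against 22.4%. The median log2 fold change was 0.04 for the set and -0.04 for all genes. Csa1G123470, which had fallen by day 10, rose to 14.1, 17.5 and 15.9 RPKM at day 60, against 1.46, 1.12 and 0.977 at day 30 (log2 fold change 2.95, SE 0.34, adjusted p = 1.57e-05). Csa2G008110 rose to 33.4, 34.4 and 33.0 RPKM at day 60, against 5.77, 6.36 and 6.08 at day 30 (log2 fold change 2.29, SE 0.12, adjusted p = 1.13e-08), with 94.3, 134 and 131 in fresh ovaries. Csa6G484570 fell to 0.360, 0.423 and 0.990 RPKM at day 60, against 5.82, 7.29 and 8.34 at day 30 (log2 fold change -2.37, SE 0.30, adjusted p = 3.29e-05). Csa5G162580 fell to 2.35, 3.16 and 3.69 RPKM at day 60, against 10.96, 15.3 and 18.7 at day 30 (log2 fold change -1.96, SE 0.17, adjusted p = 1.16e-06).

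Across the whole culture, day 60 against day 2, 37 genes of the set (19.9%) were higher at day 60, against 33% of all genes tested. Another 50 (26.9%) were lower, against 27.6%. The median log2 fold change was -0.10 for the set and 0.06 for all genes. Csa1G049460 rose to 46.9, 48.5 and 45.8 RPKM at day 60, against 5.66, 5.17 and 5.08 at day 2 (log2 fold change 2.93, SE 0.09, adjusted p = 1.31e-11). Csa5G202370 averaged 3.80 RPKM at day 2, 7.68 at day 10, 11.2 at day 20, 16.4 at day 30 and 24.3 at day 60, against 74.5 in fresh ovaries, and its log2 fold change over the culture was 2.41 (SE 0.17, adjusted p = 3.88e-08).

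The opposite course was seen in Csa4G046680 and Csa2G248130. Csa4G046680 fell to 0.143, 0.387 and 0.441 RPKM at day 60, against 7.24, 8.27 and 8.91 at day 2 (log2 fold change -2.79, SE 0.18, adjusted p = 1.51e-08), although it was at 7.62 to 9.55 at day 20. Csa2G248130 averaged 37.4 RPKM at day 2, 20.4 at day 10, 10.7 at day 20, 5.06 at day 30 and 5.82 at day 60, against 125 in fresh ovaries (log2 fold change of day 60 against day 2 -2.50, SE 0.15, adjusted p = 6.48e-09). Its course was a step-by-step decline to day 30, with the libraries of days 30 and 60 close together.

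**Figure D4:**
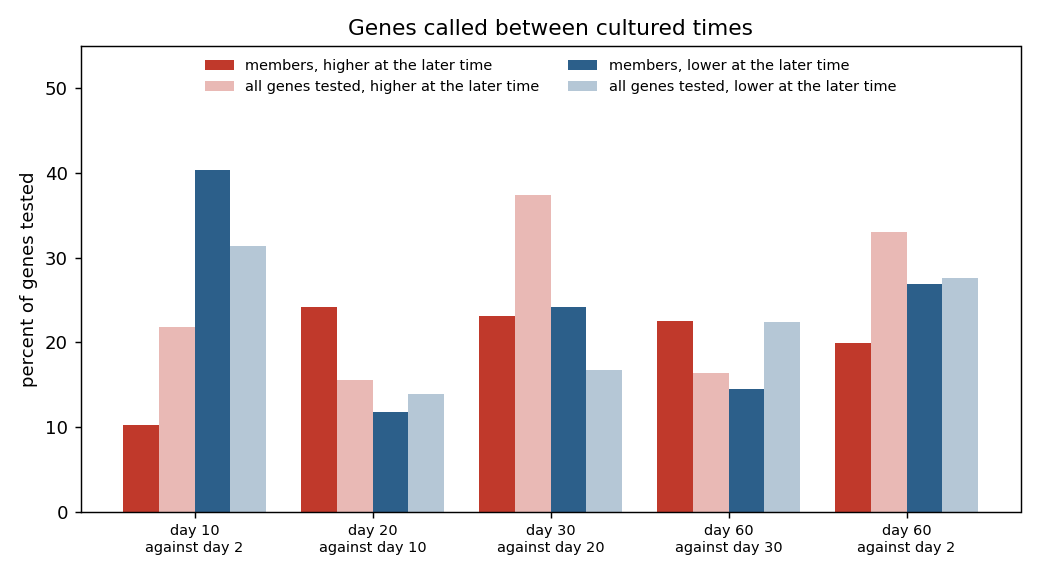
Bars give the percent of genes tested that were called higher (red) or lower (blue) at the later time of each comparison, dark for the 186 genes of the set that were tested and pale for all 17937 genes. In the set 75 genes (40.3%) were lower and 19 (10.2%) higher at day 10 against day 2, beside 31.4% and 21.8% of all genes. At day 20 against day 10, 45 (24.2%) were higher and 22 (11.8%) lower, beside 15.6% and 13.9%.

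Over the 4 consecutive steps, 41 of the 186 genes were called at none, 42 at 1, 48 at 2, 40 at 3 and 15 at all 4. As shares these were 22.0%, 22.6%, 25.8%, 21.5% and 8.06%. Over all genes tested the shares were close to these, at 17.9%, 25.6%, 27.6%, 20.7% and 8.13%. No call at any step was the most frequent pattern, followed by a fall from day 2 to day 10 with no later call, in 14 genes, or 7.53% against 6.85% over all genes tested.

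The genes of the set were short. Their median recovered length was 1572.5 bases, against 2998 over all genes at 5 RPKM or more in fresh ovaries, and 62 of the 200, or 31.0%, were under 1000 bases long, against 12.4%. Short genes gather fewer reads at a given RPKM. The coefficient of variation between the 3 fresh libraries had a median of 14.9% in the set and 10.1% over the genes at 5 RPKM or more. Whether length or fewer reads has a part in either difference was not tested.

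Some of the 200 sat in following rows of the tables, which are sorted by ID. With at most 2 other genes between neighbours, 33 of them fell into 14 runs, 12 of which were pairs. The same count was not made for other sets of genes, so whether 33 is many was not tested. The longest run held 5 genes of the set within 8 rows, Csa6G502630, Csa6G502640, Csa6G502650, Csa6G502670 and Csa6G502700. Csa6G502670 was at 37.4 to 63.9 RPKM in culture, against 359.8, 306 and 233 in fresh ovaries, and Csa6G502640 was at 2.56 to 7.43 in culture, against 76.4, 51.7 and 45.3 in fresh ovaries. The 3 genes between them did not share this course: Csa6G502660 averaged 31.0 RPKM at day 30 and 7.57 in fresh ovaries, Csa6G502680 averaged 13.6 at day 30 and 8.09 in fresh ovaries, and Csa6G502690 averaged 34.8 at day 30 and 13.1 in fresh ovaries. Over the 5 cultured times the mean of Csa6G502670 stayed between 48.9 and 55.2 RPKM.

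A second run held Csa5G136900, Csa5G137400, Csa5G137410 and Csa5G137430, with Csa5G137420 as the only other row. Csa5G137410 was at 115, 124 and 166 RPKM in fresh ovaries, with means of 18.6 at day 2, 5.96 at day 10, 12.2 at day 20, 23.4 at day 30 and 17.6 at day 60. Csa5G137420 met the rule with a ratio of 2.21 but fell beyond the limit; it averaged 835 RPKM in fresh ovaries, 378 at day 2, 54.1 at day 10, 57.6 at day 20, 113 at day 30 and 125 at day 60. Csa5G136900, Csa5G137400, Csa5G137410 and Csa5G137420 each had lower means at days 10 and 20 than at days 2, 30 and 60, whereas Csa5G137430 had 16.6 RPKM at day 2 and 8.84 to 11.2 at all later times. Neighbouring genes may overlap or be near copies of each other, and no source used here gives the strand setting of the counting, so reads shared between them cannot be told apart. The runs were looked for with the levels known and are a description.

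**Figure D5:**
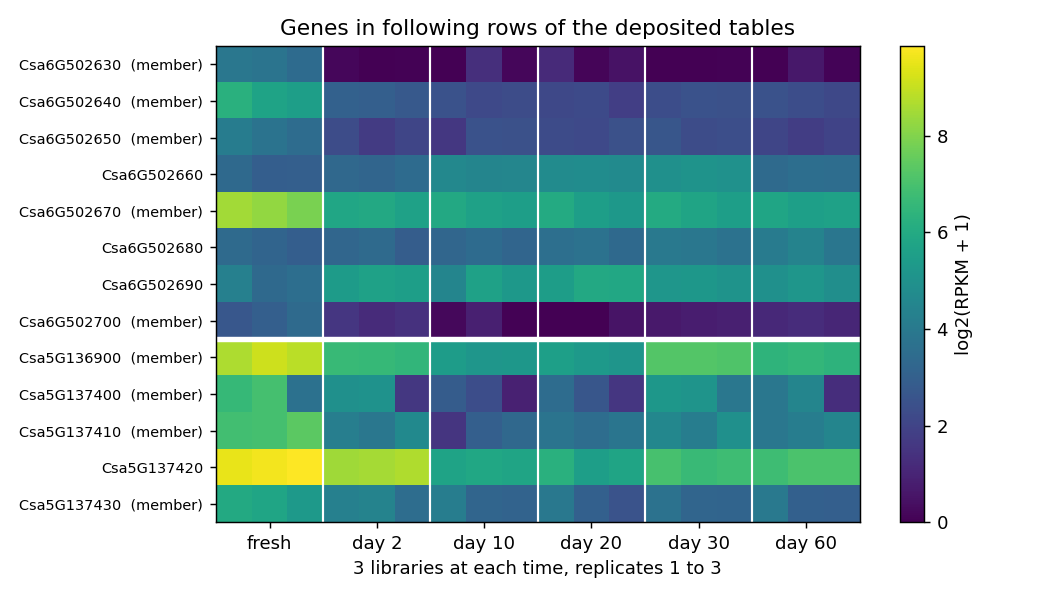
Rows are the genes of the 2 longest runs in the order of the tables, columns the 18 libraries in 3 per time, and colour log2(RPKM + 1). The fresh columns are the brightest in the rows marked as members, except in Csa5G137400, whose replicate 3 of fresh ovaries (11.8 RPKM) is darker than several cultured columns. In Csa6G502660, Csa6G502680 and Csa6G502690 the day 30 columns are brighter than the fresh ones.

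By the ID prefix, which ranges from Csa1 to Csa7 and CsaU, the set drew 0.674% (Csa7) to 1.12% (Csa4) of the genes of each numbered prefix and 0 of the 272 CsaU genes. The genes whose 6 time means were most like those of Csa2G263890, by Pearson correlation of log2(mean RPKM + 1), were Csa1G059200 (r = 0.998), Csa6G109630 (r = 0.998) and Csa3G850560 (r = 0.997), over 6 means each. They averaged 0.218, 1.08 and 1.43 RPKM in fresh ovaries and did not meet the rule, so the likeness is in shape and not in level, and a correlation over so few points is a description.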

How the data were processed

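Per the labels' protocols, the 18 libraries were made from poly(A) RNA and read from both ends by Illumina sequencing. The authors deposited RPKM values, per the file headers, in a file for each time. The 3 library names of the fresh ovaries share a cell of their header, whose order was followed. The submitters' processing notes name TopHat2, TopHat and HTSeq 0.6.1p2. Build, annotation and strand setting were not given in the sources used. RPKM scales by depth and gene length and not by the make-up of the RNA, so abundant transcripts can shift other genes.

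Whole reads, library totals and lengths were recovered from the RPKM steps for 21761 of the 21761 genes above 0, with every value within 0.02 of a whole read; this was tested on 6 simulated tables. RPKM are not counts, so limma 3.58.1 (R 4.3.3; trended, robust) was run on log2(RPKM + 1), which understates changes of low genes, with 1 coefficient per cultured time. The fit was tested on simulated data with known changes. Named genes were those with the 10 highest ratios, the 5 highest fresh and 3 highest cultured levels, the highest at each cultured time, the 3 on either side of the limit, and the 2 largest rises and falls called at each comparison; others are marked or belong to a run. Other steps used Python 3.11.15, numpy 2.4.6, pandas 2.3.3 and matplotlib 3.10.9. The members and lists were chosen with earlier results of these data known. Keyword lists and sequences were not used here, because no ID matched.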

Additional observations from a re-analysis of the deposited data

How the results depend on the processing

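The results were recomputed under other scalings, pseudocounts, filters, sets of libraries and tests. Voom on the recovered reads and a fit without the 2 libraries that listed the fewest genes (replicate 1 at day 10 and at day 20) were chosen after seeing the data. Of 242 alternatives of counts, 229 stayed within 1.5 times, and all 320 alternatives of the named genes' tested changes, the 2-fold test aside, gave the same sign and an adjusted p under 0.05; those genes were picked for large called changes. Tested against a 2-fold change, the genes of the set higher and lower were 6 and 5 at day 10 against day 2, 4 and 0 at day 20 against day 10, 1 and 6 at day 30 against day 20, 3 and 4 at day 60 against day 30, and 7 and 7 at day 60 against day 2, fewer by construction; limma's treat gave 0 lower at day 20 against day 10 at an unadjusted p under 0.05. Over all 17937 genes tested, the 2-fold test called 1599, 508, 1216, 585 and 2204 in the same order of comparisons. Of these, 961, 323, 407, 151 and 1206 were higher. On the 6 libraries compared alone, day 20 against day 10 gave 28 and 10, with fewer libraries and genes in the fit. There 3180 of the 16416 genes tested were called, 1747 of them higher. Median-ratio scaling gave 24 higher at day 30 against day 20. Over all genes it gave 3905 higher of 17895 tested, against 6701 of 17937 in the main fit.

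Leaving libraries out gave, for genes higher and lower, 15 to 26 and 67 to 82 at day 10 against day 2, 33 to 44 and 16 to 21 at day 20 against day 10, 34 to 45 and 35 to 43 at day 30 against day 20, 31 to 51 and 21 to 32 at day 60 against day 30, and 34 to 42 and 46 to 59 at day 60 against day 2; a time left with 2 libraries is assumed to vary like the others. Between 17782 and 17905 genes were tested in these fits. The calls over all of them numbered 8403 to 9970, 4401 to 5041, 8552 to 10101, 5471 to 8532 and 9637 to 11963 in order. Those higher were 3459 to 4279, 2338 to 2746, 5828 to 6927, 2205 to 3762 and 5221 to 6522. Leaving libraries out also gave 136 to 150 genes of the set varying over the cultured times, 398 to 423 genes meeting the rule, and 174 to 199 of the 200 kept. In the main fit 146 genes of the set varied (78.5%), against 84.4% of all genes tested.

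Same-numbered libraries of different times deviated together, with correlations of 0.07 to 0.64 and over 0.1 in 28 of 30 pairs, and 14 of 15 libraries correlated best with their own number, a hint from the data and not the design. Pairs of different numbers gave -0.48 to 0.26, over 0.1 in 10 of 60. Pairs of replicate 3, the deepest, gave 0.53 to 0.64, and the other same-numbered pairs 0.07 to 0.41. With the replicate block the genes higher and lower in the same order were 28 and 82, 54 and 27, 52 and 49, 52 and 32, and 41 and 58. Voom gave 19 and 70, 38 and 22, 41 and 45, 43 and 28, and 35 and 50, and the fit without the 2 libraries 26 and 82, 37 and 20, 45 and 43, 51 and 32, and 42 and 59. Over all 17937 genes tested the block called 10979, 7043, 11362, 8944 and 12155, with 4474, 3586, 7932, 3908 and 6578 higher. Voom called 9356, 5253, 9946, 7499 and 10984, with 3796, 2728, 6949, 3195 and 5907 higher. Without the 2 libraries 9970, 4785, 10101, 8532 and 11963 of 17782 genes were called, with 4279, 2504, 6927, 3762 and 6522 higher. Depth limits the genes near 0 in culture.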
